A study of Mus musculus with 194 samples.

Results

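The 9 genes described here, Bcl11b, Fezf2, Tbr1, Sox5, Foxp2, Tle4, Ldb2, Etv1 and Rbp4, are markers and regulators of the projection neurons of the deep cortical layers. They were taken by name from 21631 protein-coding loci on chromosomes 1 to 19 and X. A locus is the gene body in GRCm38 with 10 kb on each side, and its level is the number of transposon insertions in it per 1000000 insertions of the same animal (IPM, insertions normalised to depth). The 9 loci held 80620 of the 21931733 insertions in the series. The gene bodies of the layer 5 members lie at chr12:107910403-108004145 (Bcl11b), chr14:12338992-12346803 (Fezf2), chr5:44435955-44799759 (Ldb2), chr12:38780082-38870483 (Etv1) and chr19:38116620-38125321 (Rbp4). Those of the members known mainly from layer 6 lie at chr2:61802863-61814114 (Tbr1), chr6:143828425-144782287 (Sox5), chr6:14901349-15441977 (Foxp2) and chr19:14448072-14598183 (Tle4).

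The series recorded insertions with calling cards, in which a transposase carried into the brain by adeno-associated virus (AAV) inserts a marked transposon at TTAA sequences. The labels list 194 samples, which the authors pooled into 47 tables, 1 for each of 46 animals in 11 groups and 1 for N2a, a mouse neuroblastoma cell line, from 24 of the samples. Virus was given on postnatal day 0 to 1. Insertions were read from RNA transcribed out of the transposon in all brain groups except BrokenHeart, which was read from DNA.

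The Syn1Cre group (6 animals) carries a Cre line named for the neuronal synapsin 1 promoter, and the GFAPCre group (6) a line named for the promoter of the astrocyte filament gene Gfap, which in many such lines is also active in neural progenitors. Syn1CreNeg (6) and GFAPCreNeg (6) are the groups labelled Cre-negative. C57bl6J (2) and BrokenHeart (3) animals carry no such Cre label, and the design text states that C57bl6J received viruses that work without Cre. Syn1Cre_SP1 animals, labelled with the transcription factor SP1, were taken at P28 (4) and P10 (3), read here as postnatal days. Frontflip_GFAPCre (3) and Frontflip_GFAPCreNeg (3) carry a construct label that the labels do not explain. All of these tables come from cortex, which for the RNA-read libraries was divided into 10 pieces that were read apart, so that insertions at the same TTAA in different pieces could be counted separately. The Rbp4Cre_TRAP group (4) comes from whole forebrain, with Cre in a line named for the Rbp4 promoter and RNA taken by TRAP, usually read as translating ribosome affinity purification. It therefore differs from the cortex groups in tissue, RNA fraction and Cre line at once, and the effects of these cannot be told apart. The labels name neither the transposase nor, outside the SP1 groups, the age at collection. In pooled tissue, fewer cells of a type and fewer insertions per cell cannot be told apart.

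Depth differed between the groups. Syn1Cre animals had 443158 to 1364948 insertions and GFAPCre animals 600443 to 1505413, while Rbp4Cre_TRAP animals had 24408 to 57014, SP1 animals 86842 to 577609, BrokenHeart animals 42511 to 98197 and Frontflip_GFAPCreNeg animals 2341 to 9601. The 4 Rbp4Cre_TRAP animals together placed 351 insertions in Sox5, 193 in Ldb2, 51 in Fezf2, 24 in Etv1 and 3 in Rbp4. The summed level of 12 GABAergic neuron loci was 1523 IPM in Syn1Cre (1424 to 1719), 374 in GFAPCre (318 to 426) and 172 in Rbp4Cre_TRAP (59.6 to 324), where Gad1, Slc32a1, Dlx2, Dlx5 and Lhx6 had no insertion in any animal. The sum of 10 astrocyte loci ranged from 914 to 2974 IPM in Syn1Cre and from 1206 to 2387 in GFAPCre, so it did not separate these groups, and was 358 to 819 in Rbp4Cre_TRAP. The sum of 16 other deep-layer loci averaged 3923 IPM in Syn1Cre and 5474 in Rbp4Cre_TRAP, and that of 11 upper-layer loci was also higher in Rbp4Cre_TRAP, at 4411 against 3365.

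The neocortex is built in layers from the inside out, and its deep layers send axons out of the cortex: layer 5 neurons to the brainstem, spinal cord and striatum, and layer 6 neurons to the thalamus. Fezf2 and its target Bcl11b (CTIP2) promote the subcerebral identity of layer 5, while Tbr1 promotes the corticothalamic identity of layer 6 and represses Fezf2. An unfused piggyBac transposase, the enzyme usual in such mouse work, inserts preferentially in open, active chromatin, and a fused DNA-binding protein such as SP1, which recognises the GC box GGGCGG, can redirect it.

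Promoter sequences are shown for 5 members because they hold the 2 features that bear on insertion here, the TTAA where a transposon can land and the GC box that SP1 recognises. They are the 250 bases before an annotated start in RefSeq GRCm38.p6, 5′ to 3′ on the gene's strand, with TTAA and the GC box on either strand (GGGCGG or CCGCCC) in capitals. The tables used here hold entries for 7 of the 9 members, and Foxp2 and Ldb2 were not matched. The windows are Bcl11b chr12:108003415-108003664 (minus strand), Fezf2 chr14:12345866-12346115 (minus), Tbr1 chr2:61804203-61804452 (plus), Etv1 chr12:38779832-38780081 (plus) and the entry of Rbp4 at chr19:38125322-38125571 (minus).
Bcl11b: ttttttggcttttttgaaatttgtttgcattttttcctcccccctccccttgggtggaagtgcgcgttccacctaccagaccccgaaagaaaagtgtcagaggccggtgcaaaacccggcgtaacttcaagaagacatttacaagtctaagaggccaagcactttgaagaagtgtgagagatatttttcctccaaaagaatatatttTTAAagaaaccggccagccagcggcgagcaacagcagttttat
Fezf2: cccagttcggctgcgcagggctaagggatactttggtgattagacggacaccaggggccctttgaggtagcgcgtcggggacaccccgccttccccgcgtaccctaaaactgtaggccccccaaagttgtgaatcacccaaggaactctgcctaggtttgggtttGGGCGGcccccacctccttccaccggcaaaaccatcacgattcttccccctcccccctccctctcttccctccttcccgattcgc
Tbr1: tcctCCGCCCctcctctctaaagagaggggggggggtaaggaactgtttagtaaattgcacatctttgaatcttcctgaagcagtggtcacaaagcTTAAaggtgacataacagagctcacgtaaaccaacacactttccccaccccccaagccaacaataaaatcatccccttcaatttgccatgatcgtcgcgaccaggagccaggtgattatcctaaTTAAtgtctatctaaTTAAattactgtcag
Etv1: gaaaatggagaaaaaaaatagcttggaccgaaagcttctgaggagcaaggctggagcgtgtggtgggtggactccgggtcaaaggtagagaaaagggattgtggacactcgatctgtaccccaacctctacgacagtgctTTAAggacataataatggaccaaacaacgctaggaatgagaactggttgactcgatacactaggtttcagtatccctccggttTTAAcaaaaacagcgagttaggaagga
Rbp4: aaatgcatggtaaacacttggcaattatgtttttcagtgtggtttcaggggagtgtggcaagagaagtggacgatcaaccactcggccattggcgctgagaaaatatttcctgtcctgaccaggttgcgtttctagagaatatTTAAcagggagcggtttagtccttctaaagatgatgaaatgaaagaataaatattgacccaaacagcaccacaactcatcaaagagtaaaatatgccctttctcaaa

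Over all tables the Bcl11b window held 121 insertions, the Tbr1 window 167 and this Etv1 window 199, each of them on a TTAA printed in capitals. The single Bcl11b TTAA, 43 bases before the start, took 38 insertions from all 6 Syn1Cre animals. Of the 3 TTAA of Tbr1, the one 154 bases before the start took 29 insertions in Syn1Cre, 8 in SP1_P28 (4 animals) and 4 in SP1_P10 (2 animals). In the Etv1 window, the TTAA 110 bases before the start took 32 insertions in Syn1Cre and the one at 27 bases took 9. The Fezf2 window has no TTAA and no insertion, so the high level of that locus came from outside it. The Rbp4 window held 5 insertions, all from N2a. A GC box is present in the windows of Fezf2 (85 bases before the start) and Tbr1 (246 bases before), in both entries of Tle4 and in the other entry of Rbp4, and absent from those of Bcl11b, Sox5 and Etv1. The only Sox5 window, chr6:143947107-143947356 (minus strand), lies inside the gene body. Sequence at the upper end of that body, chr6:144782287, where transcription on the minus strand begins, was not searched. Of 32851 such promoter windows, 32.74% hold a GC box and 48.97% a TTAA, so neither is rare. These matches describe letters in the windows and show no binding.

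In Syn1Cre cortex the loci of the layer-defining transcription factors were among the densest of all protein-coding loci. Per kb of locus, Tbr1 had 9.75 IPM (percentile 99.9 of all loci), Fezf2 5.42 (99.8) and Bcl11b 3.82 (99.6), against 0.316 for the median locus. Etv1 (1.67 IPM per kb), Sox5 (1.57), Ldb2 (1.40) and Foxp2 (0.990) also lay above that median. Tle4 (0.456) and Rbp4 (0.230, percentile 40.2) lay near it. Tbr1, Fezf2 and Bcl11b were about as dense in GFAPCre (percentiles 99.9, 99.8 and 99.2) and GFAPCreNeg (99.8, 99.6 and 98.9). The 9 loci together held 0.378% ± 0.0197 (SD, n = 6) of the insertions in Syn1Cre and 0.380% ± 0.0164 (n = 6) in GFAPCre. The share was 0.507% ± 0.0225 (n = 4) in Rbp4Cre_TRAP, 0.221% ± 0.0100 (n = 4) in SP1_P28, 0.225% ± 0.0164 (n = 3) in SP1_P10, 0.260% ± 0.0115 (n = 3) in BrokenHeart and 0.0565% in the single N2a table.

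**Figure D1:**
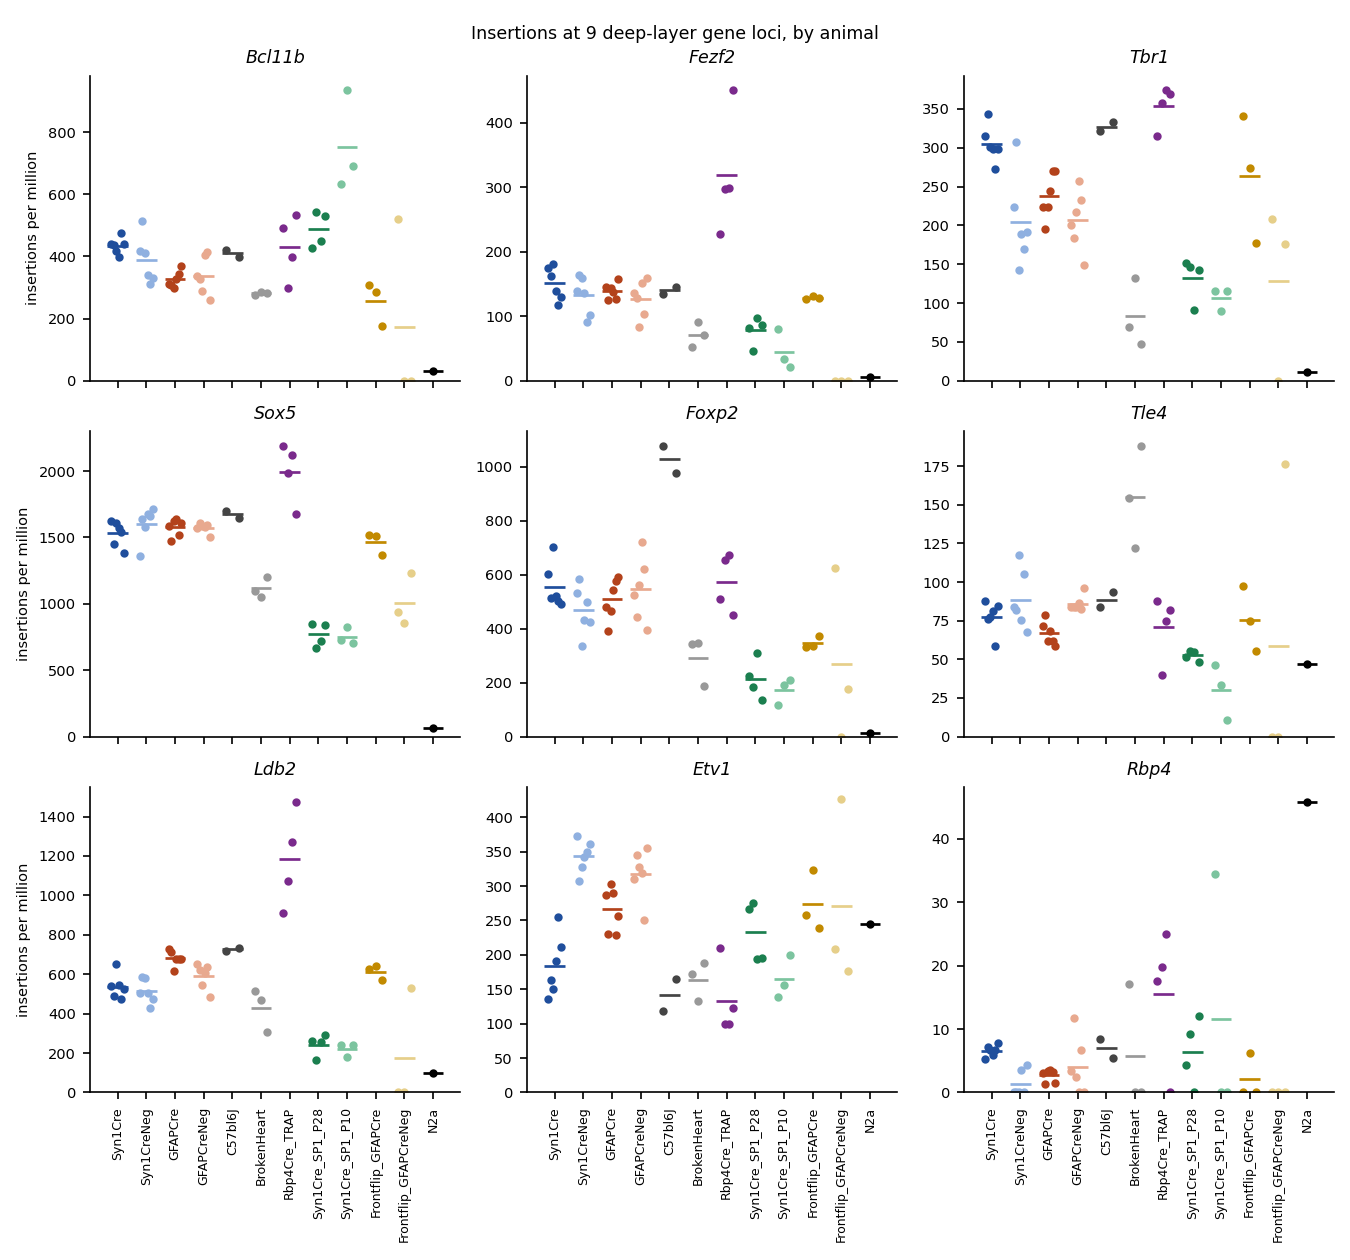
IPM (vertical axes, linear, from 0) at each of the 9 loci in every animal (points) of the 11 brain groups and in the single N2a table; horizontal lines are group means. Fezf2 and Ldb2 are highest in Rbp4Cre_TRAP, Bcl11b in SP1_P10, Foxp2 in C57bl6J and Tle4 in BrokenHeart. The 0 values of Frontflip_GFAPCreNeg come from tables of at most 9601 insertions.

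Among the layer 5 regulators, Fezf2, a zinc finger factor, was measured at 228, 298, 299.5 and 450.7 IPM in the 4 Rbp4Cre_TRAP animals. In Syn1Cre its lowest, median and highest values were 117, 150.3 and 180.3, and in GFAPCre 125.5, 140.0 and 157. Every Rbp4Cre_TRAP animal lay above every animal of the Syn1Cre group, which came next in the order of group means. Fezf2 was lower in SP1_P28 (81.9, 45.9, 97.2 and 86.6), SP1_P10 (80.6, 33.4 and 20.98) and BrokenHeart (51.5, 91.7 and 70.6). It was 6.20 IPM in N2a, with a 95% Poisson interval, which covers counting error only, of 2.01 to 14.5.

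Bcl11b, the zinc finger factor of subcerebral neurons that striatal and some GABAergic neurons also express, had its highest values in SP1_P10, at 633, 936 and 692 IPM. SP1_P28 followed with 427, 541, 449.5 and 531.5, below all 3 SP1_P10 animals. Syn1Cre animals lay between 397 and 476 (median 437) and GFAPCre animals between 299.8 and 368 (median 320.1). These groups did not overlap. The Rbp4Cre_TRAP animals, at 491, 298, 399 and 533, spanned the ranges of both. N2a had 32.2 IPM (Poisson interval 21.1 to 47.2).

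Ldb2, a cofactor that binds LIM domain proteins and marks layer 5, had 912, 1073, 1273 and 1475 IPM in Rbp4Cre_TRAP. The lowest of these exceeded the highest animal of Syn1Cre (473.9, median 530.6, to 651.7) and of GFAPCre (614.5, median 678.7, to 725). The SP1 groups were at the low end, with 258.7, 165, 255 and 291 at P28 and 241.8, 178 and 241 at P10.

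Etv1 (ER81), an ETS factor of layer 5 neurons, ran the other way. Its highest group was Syn1CreNeg, at 308 to 372 IPM (median 345.5), and its lowest Rbp4Cre_TRAP, at 210.5, 99.3, 99.8 and 122.9. GFAPCre animals had 229 to 303 (median 272). Syn1Cre animals 1 to 3 had 135.5, 163.4 and 150.1 and animals 4 to 6 had 191.2, 255 and 210.8. Those sets of Syn1Cre animals also differ in the layout of their labels and in sequencing. Insertions seen in 1 read only made up 37.3% to 44.5% of the first set and 10.1% to 15.2% of the second, and the part of this in the Etv1 values was not tested. In N2a, Etv1 was at 245.5 IPM (Poisson interval 212 to 282) and at percentile 95.6 per kb.

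Rbp4, a retinol carrier whose promoter is used for the layer 5 Cre line, was sparse in brain. Syn1Cre animals had 5.31 to 7.81 IPM (37 insertions) and GFAPCre animals 1.33 to 3.602 (13 insertions), without overlap. The 4 Rbp4Cre_TRAP animals had 1, 1, 1 and 0 insertions, none of them in the gene body. N2a had 45.9 IPM from 37 insertions (Poisson interval 32.3 to 63.2). With all animals included, the locus passed the low-count filter in no comparison, and no test of it is given.

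Among the layer 6 regulators, Tbr1, a T-box factor, had 315.7, 357.5, 374 and 368.7 IPM in Rbp4Cre_TRAP and 321.5 and 332.9 in C57bl6J, which overlapped. Syn1Cre animals had 273 to 343.5 (median 299.7) and GFAPCre animals 195 to 269.99 (median 234), without overlap. In Syn1CreNeg the animals ran from 142.8 to 308 (median 190.0). Lower values were found in SP1_P28 (150.9, 146.8, 91.1 and 142), SP1_P10 (115.2, 89.1 and 115.4) and BrokenHeart (68.6, 132.4 and 47.0).

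Sox5, a SoxD factor that times the differentiation of deep-layer neurons, has the longest gene body of the set and the most insertions. Its 4 Rbp4Cre_TRAP values, 2192, 1986, 2122 and 1680 IPM, lay above all 6 Syn1Cre animals (1386, median 1557, to 1623) but overlapped C57bl6J (1697 and 1649). The SP1 groups were the lowest brain groups, with 669.9 to 845 at P28 and 703 to 824 at P10. Foxp2, a forkhead factor of layer 6 and striatum, stood out in C57bl6J at 1076 and 977 IPM. No animal of Rbp4Cre_TRAP, the next group (508.6, 655.5, 673.9 and 450.7), reached those values, and Syn1Cre animals lay between 490.3 and 703 (median 517). Tle4, a Groucho corepressor of layer 6, was highest in BrokenHeart at 154.4, 122.2 and 188.2 IPM, above Syn1CreNeg, the next group (68.0 to 117.6), and lowest in SP1_P10 at 46.1, 33.4 and 10.5.

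The Rbp4Cre_TRAP and Syn1Cre comparison sets forebrain RNA of a layer 5 line against cortex of a general neuronal line. Ldb2 was higher in Rbp4Cre_TRAP by 0.83 on the log2 scale (SE 0.15), with an adjusted p of 0.00125 in edgeR's quasi-likelihood test with Benjamini-Hochberg adjustment over all loci. It was the only member of 8 tested that passed at 0.05, where 2.11% of all loci passed in either direction and 0.196% passed as higher. Without 1 animal the share of all loci ranged from 0.746% (Rbp4Cre_TRAP animal 4) to 4.02% (Syn1Cre animal 5). DESeq2 called 2 members, and 2 members had an unadjusted edgeR p under 0.05. The Ldb2 call held in all 20 alternative settings, and leaving out single animals gave adjusted p between 0.000141 and 0.0319. Fezf2 was higher by 0.74 (SE 0.23) with an adjusted p of 0.073. It passed the threshold with scaling by total insertions (0.0194), with distinct positions (0.000451), in DESeq2 (0.0102), against Syn1Cre animals 1 to 3 alone (0.00502), and without Syn1Cre animal 1 or 3. For Fezf2, Ldb2 and Sox5 all Rbp4Cre_TRAP animals lay above all Syn1Cre animals, and 10.9% of all loci showed such a separation.

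The remaining members did not pass against Syn1Cre, although Sox5 did against Syn1Cre animals 1 to 3 alone (0.43, adjusted p 0.00024), a fit of 807 loci of which 19.8% were called. Their log2 values were 0.14 for Sox5 (SE 0.14, adjusted p 0.691), -0.05 for Tbr1, -0.19 for Foxp2, -0.30 for Bcl11b, -0.41 for Tle4 and -0.65 for Etv1 (SE 0.33, adjusted p 0.345). The median of the 8 members was -0.12 and that of all loci tested -0.31. Scaling by total insertions moved the median of all loci to -0.07 and the share of calls that were higher from 9.29% to 42.6%, so the signs of small differences depend on the scaling. A 3-fold change in simulated counts was recovered at 33.5% of 200 changed loci, drawn at random from all loci tested. That share is not a recovery at the members, whose Rbp4Cre_TRAP counts ran from 12 insertions (Tle4) to 351 (Sox5).

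Among 14 other deep-layer loci tested against Syn1Cre, 2 rose, Foxp1 (0.67, adjusted p 0.00688) and Bhlhe22 (0.69, adjusted p 0.0372), both transcription factors of projection neurons. There 2 fell, Nr4a2 (-1.68, adjusted p 0.0164), a nuclear receptor of layer 6b and claustrum, and Hs3st4 (-1.28, adjusted p 0.0216), a heparan sulfate enzyme of layer 6. Among the upper-layer loci, 2 fell, Cux1 (-2.57, adjusted p 0.000745) and Cux2 (-1.28, adjusted p 0.00861), both cut-homeobox factors of the upper layers. The summed level of all 11 upper-layer loci was nonetheless higher in Rbp4Cre_TRAP, at 4411 IPM (3859 to 5203) against 3365 (2949.65 to 4134) in Syn1Cre. No GABAergic locus rose and 6 of 10 fell.

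Against GFAPCre, 3 of 8 members passed the edgeR threshold, where 5.98% of all loci passed, 0.741% as higher and 5.24% as lower. Fezf2 was higher by 0.87 (SE 0.23, adjusted p 0.00952) and Ldb2 by 0.49 (SE 0.14, adjusted p 0.0186), while Etv1 was lower (log2 -1.17, SE 0.27, adjusted p 0.00264). The Etv1 call held in every alternative setting that could be run, 18 of 18. The Fezf2 call was lost without Rbp4Cre_TRAP animal 2, 3 or 4 (adjusted p up to 0.0977). The Ldb2 call was lost without any 1 of the 4 Rbp4Cre_TRAP animals (up to 0.217), and both were lost with insertions of at least 2 reads (0.298 and 0.487). Both were also lost without a low-count filter, Fezf2 with gene bodies alone, and Ldb2 with the replicate number as a block. For 5 members the animals did not overlap, 4 of them above and Etv1 below, against 13.8% of all loci. The members' median was 0.12, and that of all loci -0.27, or -0.04 with scaling by total insertions, which moved the share of higher calls from 12.4% to 38.9%. Of 13 other deep-layer loci, Bhlhe22 (0.77) and Foxp1 (0.50) rose and none fell, while 6 of 10 astrocyte loci fell. The cortex groups and Rbp4Cre_TRAP share no sequencing pool, and a difference of pools cannot be told apart from one of groups.

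**Figure D2:**
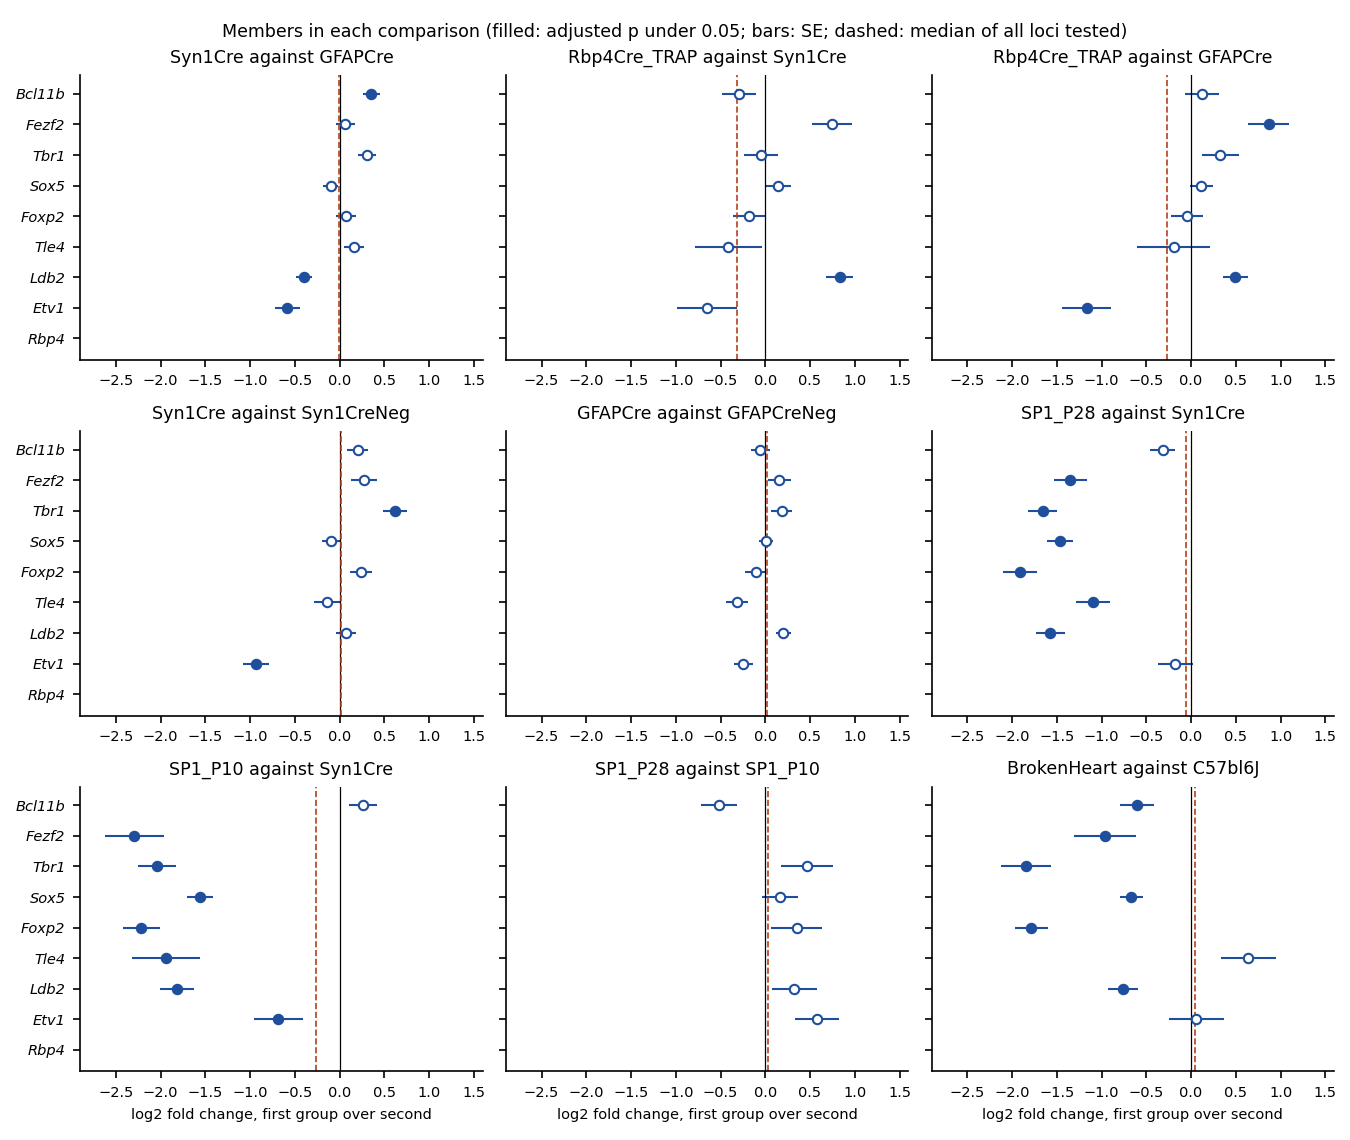
Log2 fold changes (horizontal axes) of the 8 members tested (6 in SP1_P28 against SP1_P10) in 9 comparisons, first group over second; bars are SE, filled points have an edgeR adjusted p under 0.05, and the dashed line is the median of all loci tested. Ldb2 and Fezf2 lie to the right in both Rbp4Cre_TRAP panels, and 6 members lie far to the left in both comparisons of SP1 with Syn1Cre. Panels that share a control group are not independent.

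The Syn1Cre and GFAPCre comparison asks whether lines named for a neuronal and an astrocyte promoter record different insertions at these genes. In edgeR 3 of 8 members passed, against 2.15% of all loci (1.19% higher, 0.961% lower). Bcl11b was higher in Syn1Cre by 0.35 (SE 0.09, adjusted p 0.0453). Ldb2 was lower (log2 -0.40, SE 0.09, adjusted p 0.0213), as was Etv1 (log2 -0.58, SE 0.14, adjusted p 0.0231). Tbr1 was higher by 0.31 (SE 0.10) with an adjusted p of 0.11, and only Bcl11b and Tbr1 of the tested members separated the animals completely, against 1.8% of all loci. DESeq2 also called 3 members, and 4 had an unadjusted p under 0.05.

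These calls lay close to the threshold. Bcl11b lost its call on leaving out any 1 of 9 of the 12 animals, all but Syn1Cre 4, Syn1Cre 5 and GFAPCre 6 (adjusted p 0.0284 to 0.134 over the 12), and with distinct positions it was 0.14 (adjusted p 0.619). Etv1 lost its call without Syn1Cre animal 1, 2 or 3 or GFAPCre animal 1, 3 or 4 (0.000434 to 0.079), and Ldb2 without Syn1Cre animal 2 or GFAPCre animal 1 (0.0113 to 0.0748). Tbr1 gained one without Syn1Cre animal 5 (0.0387), whose removal raised the calls over all loci from 248 to 835, or 6.98%; leaving out Syn1Cre 1, 2 or 3 or GFAPCre 1 or 4 lowered the share to between 1.09% and 1.29%. With only Syn1Cre animals 1 to 3, whose labels have the layout of the GFAPCre animals, Etv1 was at -0.95 (adjusted p 2.6e-06), Ldb2 at -0.41 (0.00734) and Bcl11b at 0.27 (0.069). No sequencing pool was shared by the 2 groups. Of 14 other deep-layer loci, Hs3st4 rose (0.53, adjusted p 0.00935) and none fell. The medians were 0.07 for the members, -0.03 for the other deep-layer loci and 2.27 for 9 GABAergic loci, all 9 of which rose.

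Within the Syn1 line, Syn1Cre against Syn1CreNeg, edgeR called 2 of 8 members, while 31.1% of all loci were called, so the members' share was near the background. Tbr1 was higher with Cre by 0.62 (SE 0.13, adjusted p 0.000843), a call lost when each position counted once (0.20, adjusted p 0.285). Etv1 was lower (log2 -0.93, SE 0.15, adjusted p 4.58e-05) in every one of 21 alternative settings, and each Syn1Cre animal lay below each Syn1CreNeg animal, as at 7.28% of all loci in either direction. The other 6 members lay between -0.14 and 0.27, with adjusted p above 0.15. Syn1Cre and Syn1CreNeg animals share no sequencing pool. Syn1CreNeg animals had 97519 to 556145 insertions, against 443158 to 1364948 in Syn1Cre. A difference of pools or depth therefore cannot be told apart from one of Cre. Of 13 other deep-layer loci 4 rose, Hs3st4 (1.04), Nr4a2 (1.05), Ntsr1 (0.95) and Lmo4 (0.40), the third a neurotensin receptor used to mark corticothalamic neurons, and none fell. All 9 GABAergic loci tested rose and all 9 astrocyte loci fell, beside which the members' median of 0.14 was close to the 0.02 of all loci.

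Within the GFAP line, GFAPCre against GFAPCreNeg, edgeR called none of the 8 members, against 8.15% of all loci (2.18% higher, 5.97% lower), and DESeq2 called none. The share was 4.09% without GFAPCre animal 2 and 5.34% without GFAPCreNeg animal 3. An unadjusted p under 0.05 was found for 3: Tle4 (-0.31, adjusted p 0.126), Ldb2 (0.20, adjusted p 0.162) and Etv1 (-0.24, adjusted p 0.154). Tle4 was the member whose animals did not overlap, with GFAPCre at 58.7 to 78.4 and GFAPCreNeg at 82.8 to 96.1 IPM, against 3.63% of all loci. Ntsr1 (0.92, adjusted p 0.0114) and Lmo4 (0.40, adjusted p 0.0439) rose among 13 other deep-layer loci, and 4 of 10 astrocyte loci fell. The difference between the Cre effects of the lines was tested by an interaction term chosen after these values were seen. It called none of the 8 members and 0.692% of all loci in edgeR (DESeq2 was not run), with unadjusted p under 0.05 for Etv1 (-0.67, SE 0.18, adjusted p 0.0703), Tbr1 (0.46, SE 0.17, adjusted p 0.228) and Foxp2 (0.37, SE 0.18, adjusted p 0.371). The Cre effects on these loci are therefore not shown to differ between the lines.

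With SP1 at P28, most of these loci held fewer insertions. In edgeR 6 of 8 members fell against Syn1Cre, where 51.5% of all loci were called, 26.2% as higher and 25.3% as lower. On the log2 scale Foxp2 fell by 1.92 (SE 0.19, adjusted p 9.47e-09), Tbr1 by 1.66 (SE 0.16, adjusted p 7.36e-09), Ldb2 by 1.57 (SE 0.17, adjusted p 2.25e-08), Sox5 by 1.46 (SE 0.15), Fezf2 by 1.35 (SE 0.19) and Tle4 by 1.09 (SE 0.19, adjusted p 3.29e-05). For these 6, every SP1_P28 animal lay below every Syn1Cre animal, while 39.2% of all loci separated in either direction. Bcl11b (log2 -0.32, adjusted p 0.0586) and Etv1 (-0.18, adjusted p 0.466) did not pass. Bcl11b did pass in DESeq2, which called 7 members, with insertions of at least 2 reads, and without SP1_P28 animal 4. The mean of Bcl11b IPM was higher in SP1_P28 (487.3) than in Syn1Cre (434.7), so its sign depends on the scaling: scaling by total insertions moved the median of all loci from -0.06 to 0.42 and the share of higher calls from 50.9% to 80.4%. Each of the 6 calls held under that scaling, with falls of 0.62 (Tle4, adjusted p 0.012) to 1.44 (Foxp2). The members' median was -1.41. Of 15 other deep-layer loci 11 fell (median -1.08), among them Hs3st4 (-2.03), Bhlhe22 (-1.73) and Foxp1 (-1.48), and S100a10, an annexin partner of layer 5 cells, rose (0.77, adjusted p 0.043), a gene named after its value was seen. Of 10 upper-layer loci 5 fell and none rose (median -0.32), and of 10 GABAergic loci 2 rose and 1 fell (median 0.26).

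At P10 the same 6 members fell in edgeR, by 2.29 (Fezf2, SE 0.33, adjusted p 3.29e-06), 2.21 (Foxp2, SE 0.21, adjusted p 5.57e-09), 2.04 (Tbr1, SE 0.21), 1.94 (Tle4, SE 0.38, adjusted p 0.000204), 1.81 (Ldb2, SE 0.19) and 1.56 (Sox5, SE 0.15) on the log2 scale. The SP1_P10 counts behind these falls were small at Tle4 (8 insertions) and Fezf2 (12). Etv1 was the seventh of 8 called, where 40.7% of all loci were called, 20.1% as higher and 20.6% as lower. It was at -0.69 (SE 0.27, adjusted p 0.0479) and kept its call in 6 of 18 alternative settings, with -0.15 (adjusted p 0.698) under total scaling. DESeq2 called 6 members. Bcl11b was at 0.26 (SE 0.16, adjusted p 0.179), with all 3 SP1_P10 animals above all Syn1Cre animals, and at 0.80 (adjusted p 4.67e-05) under total scaling. Groups did not overlap at 7 members, 6 below and Bcl11b above, against 43.5% of all loci. The members' median was -1.88 and that of all loci -0.26, or 0.27 with total scaling, which moved the share of higher calls from 49.3% to 76.1%. Of 14 other deep-layer loci 10 fell (median -1.35), among them Hs3st4 (-2.76) and Zfpm2 (-1.74), while 7 of 10 GABAergic loci rose (median 0.76). Of 11 upper-layer loci 5 fell and 1 rose (median -0.64), and their summed level was 2308 IPM (2161 to 2568) against 3365 (2949.65 to 4134) in Syn1Cre. Both SP1 comparisons use the same 6 Syn1Cre animals, which share no sequencing pool with the SP1 animals.

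Between the ages, SP1_P28 against SP1_P10, 6 members could be tested, and edgeR and DESeq2 called none, against 11.2% of all loci in edgeR (7.46% higher, 3.73% lower). That share rests on single animals: without SP1_P10 animal 1, 2 or 3 it was 2.81%, 2.01% or 0.142%, and without SP1_P28 animal 1 or 4 it was 5.64% or 17.8%. An unadjusted p under 0.05 was found for 2, Bcl11b (log2 -0.51, SE 0.20, adjusted p 0.0932) and Etv1 (0.58, SE 0.25, adjusted p 0.121). All P28 animals lay below all P10 animals at Bcl11b, as at 22.6% of all loci in either direction. Bcl11b passed the threshold without SP1_P28 animal 4 and in 5 other settings, which included scaling by total insertions and distinct positions. Total scaling moved the share of higher calls over all loci from 66.7% to 44.7%. The ages of the Syn1Cre animals are not in the labels, so age and SP1 cannot be told apart in the comparisons above.

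Within the loci, the loss in the SP1 libraries was uneven. For each locus the position most used by the SP1 animals was taken and set beside the rest of the locus, a description chosen after the values were seen and without a test, since the choice favours SP1. In Bcl11b that position lies 42.12 kb into the body. There the insertions within 1 kb were 41.7 ± 12.004 IPM (SD, n = 4) at P28 and 88.3 ± 19.1 (n = 3) at P10, against 15.4 ± 2.8 (n = 6) in Syn1Cre, ratios of 2.71 and 5.74, and the rest of the locus had ratios of 1.06 and 1.59. At Sox5 the position lay 0.22 kb before the body, with ratios of 1.81 at P28 and 2.04 at P10, against 0.482 and 0.467 for the rest. At Fezf2 it lay 5.55 kb into the body, with 0.929 and 0.853 near it and 0.393 and 0.132 elsewhere. At Tbr1, 1.44 kb into the body, the ratios were 1.07 and 1.63 near it and 0.385 and 0.247 elsewhere. This Tbr1 position is the TTAA 154 bases before the annotated start. Foxp2 had 3.98 near its position, from 13 insertions, and 0.359 elsewhere at P28. At P10 Foxp2 had 0.964 and 0.304, with only 1 insertion near the position. Etv1 had 1.79 and 1.54 near its position, 3.22 kb into the body, and 1.18 and 0.786 elsewhere. That position, chr12:38783305, lies just before the promoter window of the other Etv1 entry, chr12:38783461-38783710. Tle4 had 1.41 and 0.488 near its position, from 12 insertions at P28 and 1 at P10, and 0.602 and 0.376 elsewhere.

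**Figure D3:**
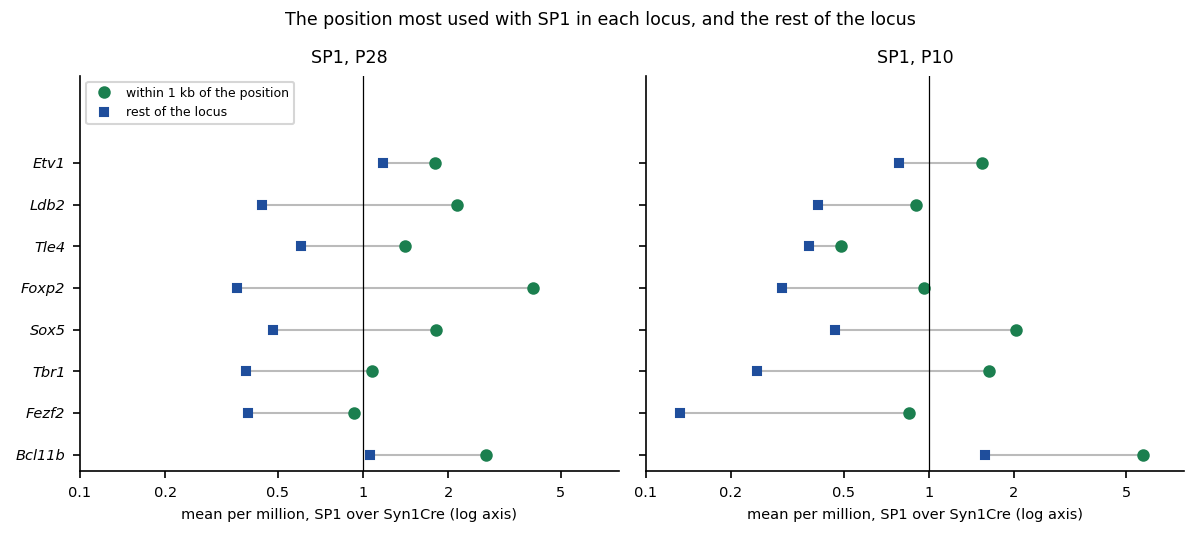
Ratio of mean IPM, SP1 over Syn1Cre (log axis), within 1 kb of the position most used with SP1 (circles) and in the rest of the locus (squares), for 8 members at P28 and P10. The circle lies to the right of the square at every member; Bcl11b at P10 has 5.74 and 1.59. The position was chosen by its SP1 count, so the gap is a description. At P10 the circles of Foxp2, Tle4 and Ldb2 rest on 1 insertion each.

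BrokenHeart was read from DNA and C57bl6J from RNA. The groups also differ in transposon construct and share no sequencing pool, so these cannot be told apart from the reading method. In edgeR 6 of 8 members were lower in BrokenHeart, where 39.9% of all loci were called and 21.1% were lower, and DESeq2 called 5. Without any 1 animal the share of all loci called was 5.78% (BrokenHeart animal 1) to 19.2% (C57bl6J animal 1), while 5 to 6 members were called. Foxp2 fell by 1.78 (SE 0.18, adjusted p 2.89e-09), Tbr1 by 1.84 (SE 0.28, adjusted p 2.78e-06), Ldb2 by 0.77 (SE 0.17, adjusted p 0.000451) and Sox5 by 0.67 (SE 0.13, adjusted p 0.000102). Bcl11b (log2 -0.60, adjusted p 0.0116) was at 0.28 (adjusted p 0.31) when each position was counted once. Fezf2 (log2 -0.96, SE 0.35, adjusted p 0.0258) lost its call without either C57bl6J animal or without BrokenHeart animal 1. Tle4 was at 0.64 (SE 0.31, adjusted p 0.0966), with all BrokenHeart animals above, and Etv1 at 0.06. Groups did not overlap at 7 members, against 56.4% of all loci. The members' median was -0.72 and that of 10 other deep-layer loci, 7 of which fell, was -0.67, against 0.04 for all loci. Loci of other cell types differed as well: 7 of 8 upper-layer loci fell, and their summed level was 1698 IPM in BrokenHeart and 3129 in C57bl6J. The GABAergic sum was 594 and 1289.5 and the astrocyte sum 1623 and 837, and the part of these in the members' values was not tested. The BrokenHeart counts were small, with 15 insertions at Fezf2 and 19 at Tbr1.

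C57bl6J was not tested against the Cre lines. Its animals lay above all Syn1Cre animals at Sox5, Foxp2 and Ldb2, 3 of the 9 members, against 14.2% of all loci not overlapping in either direction. Against GFAPCre, both C57bl6J animals lay above at Bcl11b, Tbr1, Sox5, Foxp2, Tle4 and Rbp4 and below at Etv1, 7 of the 9, where 20.4% of all loci did not overlap. Foxp2 was 1026.8 ± 70.1 IPM (SD, n = 2) in C57bl6J and 555.2 ± 82.9 (n = 6) in Syn1Cre. Frontflip_GFAPCre animals, at 306, 286 and 177 IPM for Bcl11b, 126.5, 130.7 and 128.5 for Fezf2 and 1518, 1513 and 1364 for Sox5, overlapped GFAPCre at each of these loci. At Foxp2 they lay below all GFAPCre animals, at 331 to 373 against 391 to 589.9, the only member of the 9 without overlap, where 11.3% of all loci did not overlap. N2a cells, which are not cortical neurons, had Etv1 and Rbp4 at percentiles 95.6 and 91.6 per kb, and the other 7 members between percentiles 19.5 and 52.4.

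At most of the loci the same 10 kb bin was the densest in most groups, but not at Ldb2. In Syn1Cre (n = 6), 76.4% ± 3.93 (SD) of the Fezf2 insertions fell in the first 10 kb from the start of the body, and 51.9% ± 7.37 of those at Etv1, 28.6% ± 2.27 at Bcl11b and 24.4% ± 7.81 at Tle4. At Tbr1 50.4% ± 4.40 fell between 10 and 20 kb, which spans the end of the gene and the flank after it, and 38.4% of the Tbr1 insertions also lie in the locus of its neighbour Psmd14. Sox5 was densest deep in the gene, at 580 to 590 kb (12.3% ± 0.824), Foxp2 at 280 to 290 kb (18.9% ± 1.32) and Ldb2 at 210 to 220 kb (8.86% ± 1.73), the last pair measured from the lower coordinate, since the tables used give no strand for them. The densest Ldb2 bin was also 210 to 220 kb in Syn1CreNeg, GFAPCre, Rbp4Cre_TRAP and Frontflip_GFAPCre. It was 350 to 360 kb in GFAPCreNeg, C57bl6J and SP1_P10, and lay elsewhere in the remaining groups. In Rbp4Cre_TRAP the densest Syn1Cre bins held 60.0% ± 13.3 (SD, n = 4) at Fezf2, 65.0% ± 3.33 at Tbr1 and 11.4% ± 1.302 at Ldb2. With SP1 the share of the Fezf2 bin was 92.7% ± 5.55 (n = 4) at P28 and 100% at P10, and that of the Tbr1 bin was 34.8% ± 7.89 (n = 4) and 24.7% ± 15.5 (n = 3). The P10 shares rest on few insertions, 12 at Fezf2 and 29 at Tbr1, 7 of the latter in its bin.

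**Figure D4:**
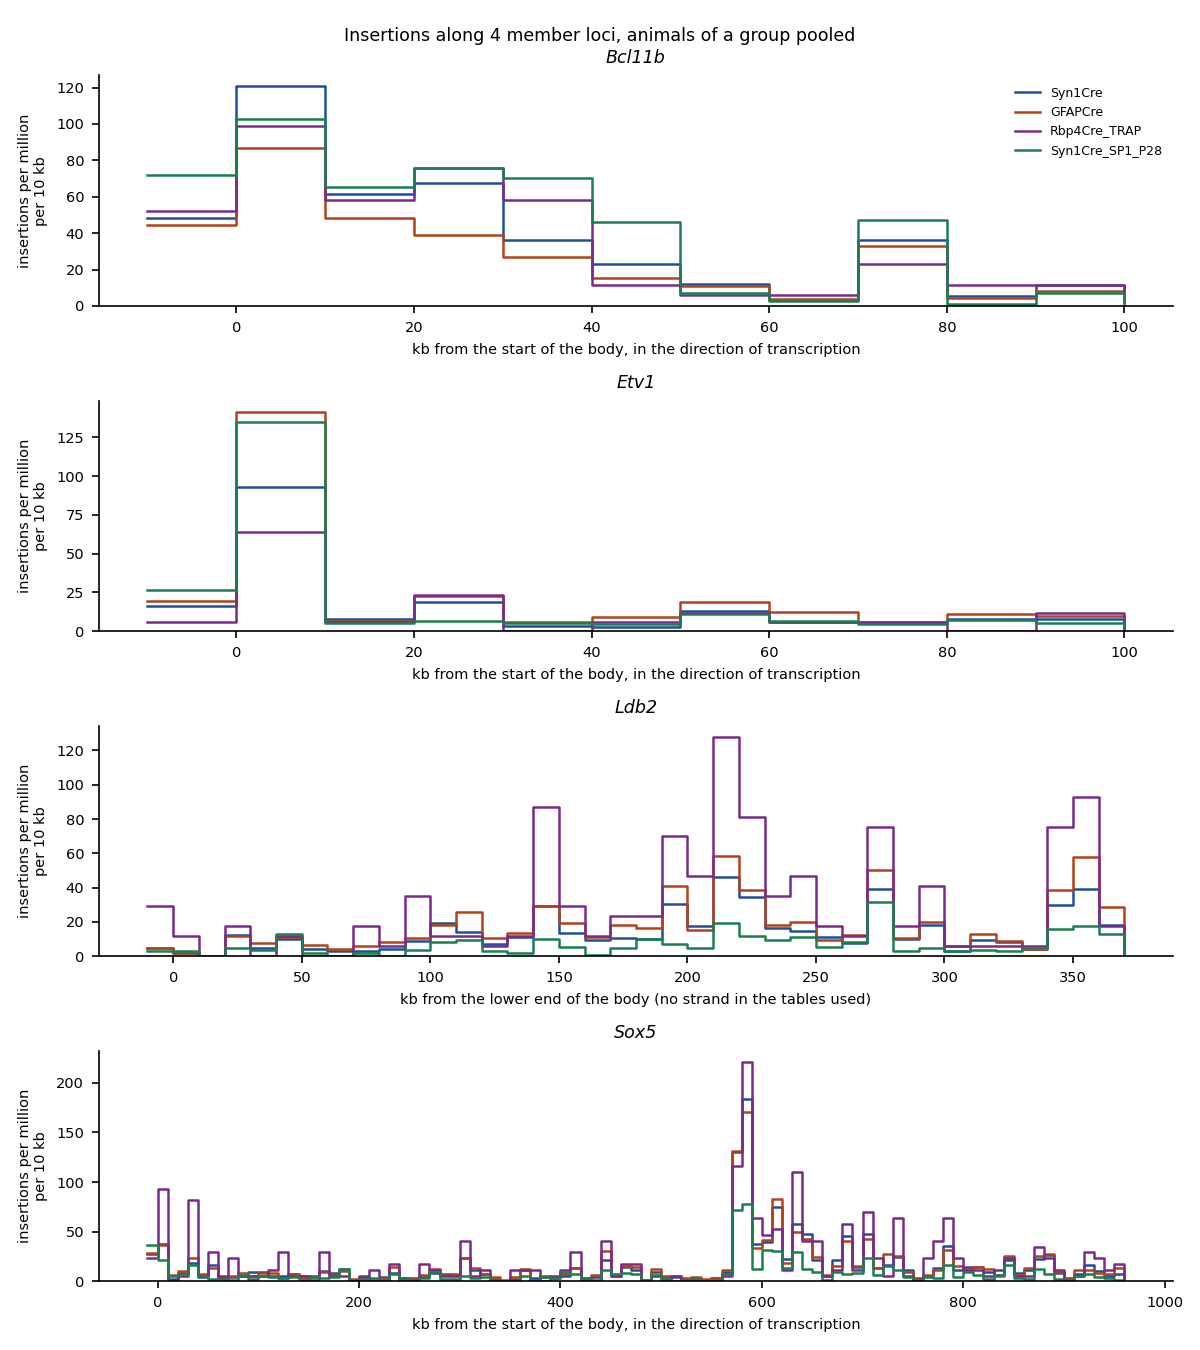
IPM in bins of 10 kb (vertical axes) along Bcl11b, Etv1, Ldb2 and Sox5, by distance from the start of the body in kb (for Ldb2 from the lower coordinate), with the animals of each of 4 groups pooled. The densest Syn1Cre bins are 0 to 10 kb at Bcl11b and Etv1, 210 to 220 kb at Ldb2 and 580 to 590 kb at Sox5. At Ldb2 the Rbp4Cre_TRAP line peaks in the same bin as Syn1Cre, at a higher level.

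Single positions recurred across animals. The most used Bcl11b position, 4.07 kb into the body, took 70 insertions in Syn1Cre from all 6 animals. The Tbr1 locus had 9.26 insertions per distinct position in Syn1Cre, Fezf2 8.45 and Bcl11b 8.20, against 3.79 at Sox5, 2.64 at Foxp2 and 1.68 at Tle4. These ratios pool the animals of the group, so they include positions shared between animals. They do not give how far counting each position once within an animal lowers a locus. Within the bodies, the share of insertions on the gene's own strand in Syn1Cre was 27.6% ± 4.38 (SD, n = 6) at Tbr1, 26.4% ± 8.25 at Tle4, 32.5% ± 4.06 at Bcl11b and 38.5% ± 4.14 at Etv1. It was 50.2% ± 1.49 at Sox5 and 62.4% ± 6.61 at Fezf2. In the DNA-read BrokenHeart tables Bcl11b had 52.4% ± 14.04 (n = 3, 47 insertions) and Sox5 54.4% ± 6.83 (n = 3). With the BrokenHeart animals pooled, Etv1 had 69.0% of 29 insertions, Fezf2 60% of 10, Tle4 42.3% of 26 and Tbr1 11.1% of 9.

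The Rbp4 locus gave little signal of its own. All of its 37 Syn1Cre insertions also fell in the locus of a protein-coding neighbour, Ffar4 or Pde6c, and 20 of them lay in the 10 kb before the body. Around it, the densest stretch lay 100 to 150 kb before the start, with 5.20 ± 2.00 IPM per kb (SD, n = 4) in Rbp4Cre_TRAP and 6.05 ± 1.13 (n = 6) in Syn1Cre. In the 50 kb before the body the values were 1.76 ± 0.96 in Rbp4Cre_TRAP and 0.776 ± 0.177 in Syn1Cre.

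Across the means of 10 groups, Sox5, Ldb2 and Fezf2 varied together, with Pearson r of 0.961 for Sox5 and Ldb2, 0.926 for Fezf2 and Ldb2 and 0.904 for Fezf2 and Sox5. Bcl11b and Tle4 ran opposite (-0.796), and Etv1 had no positive r above 0.09 with any member. These are descriptions over groups that share lines, depth and reading method. The protein-coding locus with the most similar pattern, at least 1 Mb away or on another chromosome, was Neurod1 for Fezf2 (0.984). It was Mn1 for Bcl11b (0.965), Pigg for Tbr1 (0.983), Ssbp2 for Sox5 (0.989) and Cxadr for Foxp2 (0.945). For the others it was Glis3 for Tle4 (0.976), L3mbtl4 for Ldb2 (0.984), Dtna for Etv1 (0.965) and Usp46 for Rbp4 (0.892). Each was the highest r among 10802 to 10815 loci over only 10 group means, a choice that favours high values.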

How the data were processed

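Insertion tables of 46 animals and the N2a line were analysed, grouped by the labels, with the animal as the replicate. Each deposited table has 1 line per insertion with its position, strand, barcode and raw read count, as the values show. The submitters' processing notes name Bowtie2, Novoalign and the build mm10; versions, roles and filters are not given in the sources used here. BrokenHeart starts were moved by -1 to meet the TTAA positions of the other tables. GRCm38 gene bodies came from the RefSeq tables used here.

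Insertions per locus, with 10 kb flanks, were counted as lines. The counts were tested over all loci that passed edgeR's low-count filter with edgeR 4.0.16 (R 4.3.3), quasi-likelihood fits of each pair of groups, TMM scaling and Benjamini-Hochberg adjustment at 0.05. DESeq2 1.42.0, other scaling, filters, units of counting and left-out animals were alternatives, and the fits were tested on simulated counts. No genome was used, and no sequence was read by coordinates. The result of 1 upper-layer locus is not reported here.

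The members and gene lists were chosen with earlier results of these data known. The members were all described, and other loci were named from the lists if called, at most 4 per list by adjusted p. Sequencing pools that name 2 groups were assigned by the labels. Nothing in the labels ties animals to litters or sequencing days. Animals do share sequencing pools, within groups (8 for Syn1Cre animals 1 and 2) and between some groups (10 for GFAPCre 5 and GFAPCreNeg 3). The main fits took the animals as independent and did not model the pools. In no comparison did every pair of animals with the same replicate number correlate above 0.1, so the numbers were not taken to pair animals.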

Additional observations from a re-analysis of the deposited data

Results flagged for a closer look

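In groups of 4 to 10 animals, a single animal was called far from the others where its gap to the nearest was large against the group's range (Dixon's test). This was the case for 4 of 54 groups looked at over the 9 loci, where chance gives about 1 in 20, or 2.7. Tbr1 in SP1_P28 animal 3 was low at 91.12 IPM, with the other animals at 142 to 150.9. Sox5 in Syn1CreNeg animal 1 was low at 1358, with the others at 1579 to 1710. Sox5 in GFAPCreNeg animal 6 was low at 1504, with the others at 1571 to 1606. Tle4 in the same GFAPCreNeg animal 6 was high at 96.13, with the others at 82.8 to 86.48.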

How the results depend on the processing

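The count of members called was the value followed over the alternatives. Leaving out 1 animal at a time gave 0 to 4 members for Syn1Cre against GFAPCre (3 with all animals), 1 to 2 for Rbp4Cre_TRAP against Syn1Cre (1), 1 to 3 for Rbp4Cre_TRAP against GFAPCre (3), 6 to 7 for both comparisons of SP1 with Syn1Cre (6 at P28, 7 at P10), 2 for the Syn1 line with and without Cre (2), 0 for the GFAP line (0), 0 to 1 for SP1_P28 against SP1_P10 (0) and 5 to 6 for BrokenHeart against C57bl6J (6). With the replicate number as a block, Syn1Cre against GFAPCre called 1 member and SP1_P28 against SP1_P10 called 1; the numbers are not shown to pair the animals (for BrokenHeart and C57bl6J the same-number correlations were -0.0863 and -0.0195). Rbp4Cre_TRAP against Syn1Cre called 2 members with scaling by total insertions, 2 with distinct positions, 2 with DESeq2 and, with Syn1Cre animals 1 to 3 alone, 3 of only 6 members tested, where 19.8% of 807 loci were called. Rbp4Cre_TRAP against GFAPCre called 1 without a low-count filter, 1 with at least 2 reads, 4 with distinct positions, where 10.9% of all loci were called, and, with all animals thinned to the shallowest, 1 of only 4 members tested, where 24.5% of 343 loci were called. Syn1Cre against Syn1CreNeg called 1 with distinct positions. SP1_P28 against SP1_P10 called 1 with scaling by total insertions, 1 with gene bodies alone, 1 with distinct positions and 1 with 1 model over all groups. The sign of a called member turned once, for Bcl11b in BrokenHeart against C57bl6J with distinct positions (0.28, adjusted p 0.31); the cause was not tested. Of 99 group levels, 88 stayed within 1 SD with at least 2 reads, 72 with distinct positions and 68 with gene bodies alone. The Rbp4Cre_TRAP comparisons had the lowest simulated recovery: a 3-fold change was recovered at 33.5% of changed loci against Syn1Cre and 35% against GFAPCre, compared with 59% for SP1_P10 against Syn1Cre, 90% for BrokenHeart against C57bl6J and 99% for Syn1Cre against GFAPCre. The changed loci were drawn at random from all loci tested, so these shares do not give the recovery at the members.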
